A study of Mus musculus and Rattus norvegicus with 30 samples.

Results

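Inflammatory mediators act on sensory neurons through a small set of enzymes and receptors. The 10 genes described here were the cyclooxygenases Ptgs1 and Ptgs2, the prostaglandin E2 receptor genes Ptger1, Ptger2, Ptger3 and Ptger4, the prostacyclin receptor gene Ptgir, the bradykinin B2 receptor gene Bdkrb2, the histamine H1 receptor gene Hrh1, and F2rl1, which encodes protease-activated receptor 2. They were chosen by name and found by their symbols, 10 of 54315 features in the mouse table and 10 of 39281 in the rat table. The cyclooxygenases make the precursor of all prostaglandins from arachidonic acid and are the targets of nonsteroidal anti-inflammatory drugs. Ptgs1 is expressed in many resting tissues, and Ptgs2 is known as a gene induced by inflammatory signals and by neuronal activity. The receptors are all coupled to G proteins. The dorsal root ganglion (DRG) is the cluster of sensory neuron cell bodies beside the spinal cord. Several of these receptors are known there for lowering the threshold at which nociceptors fire.

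RNA was sequenced from the DRG of BALB/c and B10.D2 mice and of male Wistar rats after nerve injury or sham surgery. Each mouse library was made from the L3 and L4 ganglia of 1 animal, bought at 4 to 8 weeks of age and sampled 28 days after surgery, with both sexes in every group: 6 sham and 4 injured BALB/c libraries, and 5 sham and 5 injured B10.D2 libraries. The mouse injury was spared nerve injury (SNI): some sciatic branches are severed while 1 stays intact, so the same ganglia held injured and uninjured neurons. Each rat library was made from the L5 ganglia of 3 pooled animals, 21 days after transection of the L5 spinal nerve (SNT) or sham surgery, with 4 libraries in each group. Mouse RNA was depleted of ribosomal RNA and rat RNA was selected for poly(A), so values were compared only within a species. The sources give no age for the rats.

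The mouse libraries held 29989963 to 41881331 counts and the rat libraries 11954612 to 17887909. No libraries of 1 group held identical counts. The labelled tissue was checked against its markers: in mouse all 8 neuronal markers passed the filter on low counts and summed to between 7635 and 9375 CPM (counts scaled to a common library size with edgeR's TMM factors). In rat, 17036 of 39281 features (43.4%) were listed at 0 in every library, among them the neuronal genes Tubb3 and Uchl1, so a gene listed at 0 there was not read as absent. Ptgs2, Ptger1 and Ptger2 were listed at 0 in all 8 rat libraries and have no rat values. The first principal component in rat, with 68.5% of the variance, placed sham library 4 and SNT library 1 between the others, so the rat changes are also given without both. All 10 markers of injured neurons that were fixed as a list rose after SNI in each mouse strain, and all 6 tested rose after SNT in rat.

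RefSeq promoter sequences (GRCm38.p6, 250 bases before to 50 after an annotated start) matched 8 of the 10 genes, with none for Ptger1 or F2rl1. Shown are the cyclooxygenase pair, known for constitutive (Ptgs1) and inducible (Ptgs2) expression, and Ptger3, which was called in 2 mouse comparisons. Capitals mark matches, on either strand, to the core of the cAMP response element, ACGTCA, to the E-box, CACGTG, to the box bound by Sp1 family factors, GGGCGG, to the box bound by TATA-binding protein, TATAAA, or to the AP-1 element, TGANTCA. They are the reference sequence and not that of BALB/c or B10.D2.
Ptgs1 promoter, chr2:36230176-36230475, plus strand: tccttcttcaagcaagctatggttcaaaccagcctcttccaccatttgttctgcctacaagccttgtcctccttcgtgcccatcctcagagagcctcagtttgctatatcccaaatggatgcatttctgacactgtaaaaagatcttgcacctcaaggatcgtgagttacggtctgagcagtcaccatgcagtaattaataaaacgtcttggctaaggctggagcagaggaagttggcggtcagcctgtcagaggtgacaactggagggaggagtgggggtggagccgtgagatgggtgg
Ptgs2 promoter, chr1:150099781-150100080, plus strand: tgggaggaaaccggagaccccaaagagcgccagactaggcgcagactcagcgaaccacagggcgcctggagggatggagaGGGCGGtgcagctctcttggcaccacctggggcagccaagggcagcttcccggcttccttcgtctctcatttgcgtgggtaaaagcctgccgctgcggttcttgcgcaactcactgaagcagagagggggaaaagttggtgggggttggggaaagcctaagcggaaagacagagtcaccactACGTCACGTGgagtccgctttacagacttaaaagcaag
Ptger3 promoter, chr3:157566626-157566925, plus strand: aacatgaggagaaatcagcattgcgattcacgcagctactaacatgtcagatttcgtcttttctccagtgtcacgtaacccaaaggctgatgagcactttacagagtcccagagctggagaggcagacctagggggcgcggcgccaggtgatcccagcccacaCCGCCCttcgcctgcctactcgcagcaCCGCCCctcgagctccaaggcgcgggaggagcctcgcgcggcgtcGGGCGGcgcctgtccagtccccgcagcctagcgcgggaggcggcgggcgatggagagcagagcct

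The Ptgs1 sequence held none of the 5 motifs. That of Ptgs2 held a GGGCGG match, and an ACGTCA match that overlapped a CACGTG match. ACGTCA was found in 7.51% and CACGTG in 7.15% of the 32817 promoters of this length, and among the 8 matched genes Ptgs2 alone held either. GGGCGG was found in 35.6% of all promoters and in those of Ptgs2, Ptger3, Ptger4, Ptgir and Hrh1. TATAAA was found in 13.6% of all promoters and in 0 of the 8 genes. TGANTCA, found in 7.81%, was in 1 of the 4 Hrh1 promoters. These matches are descriptions of letters and not evidence of binding.

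In mouse, Ptgir and Ptger3 were the most abundant of the 10 genes and Ptgs2 and F2rl1 the least. Levels were compared between genes as CPM per kilobase of merged exons, with exon lengths from GENCODE M21. Ptgir was at 15.97 ± 3.72 (SD, n = 20 libraries) and Ptger3, the EP3 receptor gene, at 9.77 ± 1.25. Ptger1, the EP1 receptor gene, was at 3.52 ± 0.755. Ptger4, the EP4 receptor gene, was at 1.75 ± 0.162, Ptgs1 at 1.499 ± 0.303 and Hrh1 at 1.21 ± 0.166. Bdkrb2 was at 0.722 ± 0.178, Ptger2, the EP2 receptor gene, at 0.460 ± 0.0775, F2rl1 at 0.246 ± 0.0940 and Ptgs2 at 0.235 ± 0.114. Ptgir lay above 82.3% of the 15701 tested protein-coding genes on this scale and Ptgs2 above 7.81%.
In this order the ranges over libraries of most neighbours overlapped, so their order is not settled by the means. The exceptions were Ptger3 and Ptger1, with a lowest of 7.80 and a highest of 4.93, and Ptger1 and Ptger4, with a lowest of 2.32 and a highest of 2.15. Ptger4 was the steadiest of the 10, with a coefficient of variation of 9.27% over all mouse libraries, and Ptgs2 the least steady, at 48.7%.

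**Figure D1:**
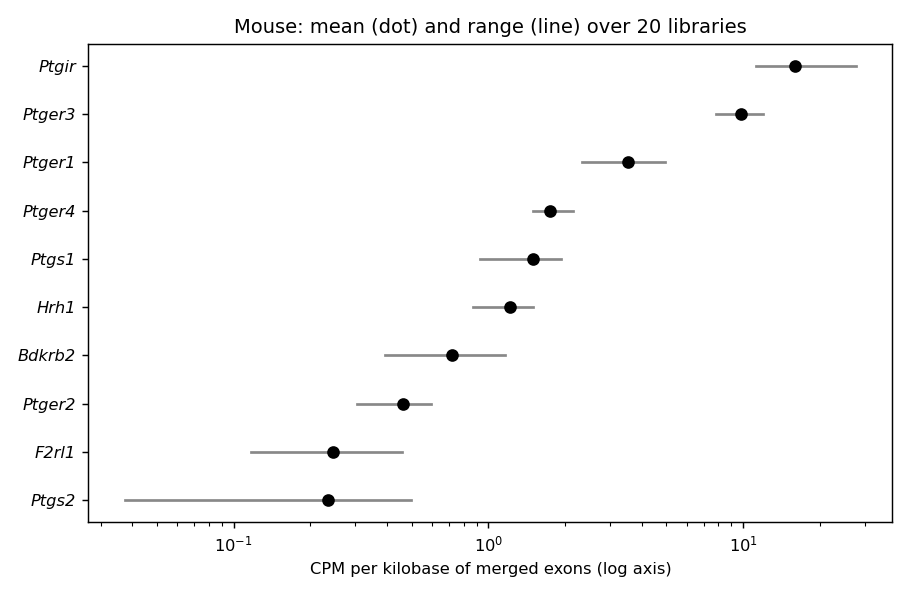
Mean (dot) and range (line) of each gene over 20 mouse libraries, in CPM per kilobase of merged exons on a log axis, ordered by the mean. Ptgir and Ptger3 stand above the other genes, and the line of Ptgs2 is the longest on this axis.

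Of the genes tested, 1 was called in each injury comparison, a different gene each time. After SNI in BALB/c, edgeR's quasi-likelihood test with Benjamini-Hochberg adjustment over all features called 1 of the 10 at an adjusted p under 0.05 (Ptger3, lower), against 9.69% of all features tested. In B10.D2 it called 1 of 10 (Ptger1, lower), against 4.58% of features. In rat after SNT it called 1 of the 7 with counts (Ptger4, higher), against 27.4% of features. The counts at an unadjusted edgeR p under 0.05 were 1 of 10 in BALB/c, 3 of 10 in B10.D2 and 3 of 7 in rat. The shares of all features at that level were 23.2%, 16.8% and 42.5%. The median log2 fold change of the genes was -0.14 in BALB/c, 0.035 in B10.D2 and 0.42 in rat, and that of all features tested was 0.0033, 0.0076 and 0.0027. The strain by SNI interaction was called for 0 of 10, against 0.0243% of features. At an unadjusted p under 0.05 edgeR gave 1 (Ptger1, p 0.0358), and DESeq2 called 0. Both strains' comparisons came from 1 model fitted over all 20 mouse libraries with sex as a term. The p-values measure the spread between single animals in mouse and between pools of animals in rat. Fewer cells of a type and less RNA per cell cannot be told apart in these bulk ganglia.

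**Figure D2:**
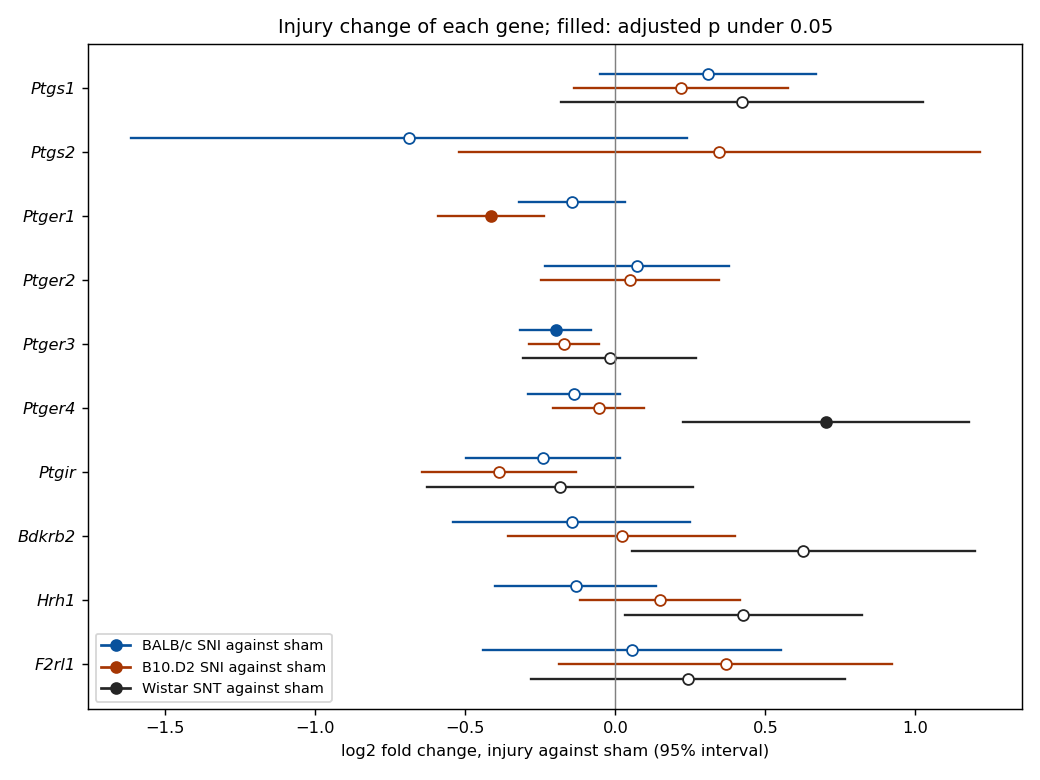
Log2 fold change of each gene with its 95% interval in BALB/c SNI (blue), B10.D2 SNI (brown) and Wistar SNT (black) against sham. Filled points passed an adjusted p of 0.05, which were Ptger3 in BALB/c, Ptger1 in B10.D2 and Ptger4 in rat. Ptgs2, Ptger1 and Ptger2 have no rat point.

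Neither cyclooxygenase passed the test after injury in mouse, nor did Ptgs1 in rat, where Ptgs2 could not be tested. Ptgs1 (chr2:36230426-36252272 in mm10, plus strand) had a lowest, median and highest of 3.58, 4.74 and 7.46 CPM in BALB/c sham. The injured BALB/c libraries were at 4.81, 6.78, 7.08 and 7.20 CPM. In B10.D2 the sham libraries were at 4.91, 5.15, 5.30, 5.67 and 6.14 CPM and the injured ones at 5.51, 5.82, 6.22, 7.20 and 7.31 CPM. The groups overlapped in both strains, though each injured mean was above its sham mean. The log2 fold change in BALB/c was 0.31 (SE 0.173, 95% interval -0.050 to 0.67, edgeR adjusted p 0.296) and 0.22 in B10.D2 (SE 0.171, -0.14 to 0.58, adjusted p 0.584).
In rat, Ptgs1 was at 13.6, 13.6, 13.7 and 25.5 CPM in sham and at 15.9, 19.9, 20.4 and 32.8 CPM after SNT. The highest sham value was that of library 4, 1 of the pair that lay between the groups on the first principal component, and the other sham libraries were below every SNT library. The difference was 0.42 on the log2 scale (SE 0.271, adjusted p 0.261). Without sham library 4 it was 0.72 (adjusted p 0.0372), and without both intermediate libraries 0.76 (adjusted p 0.0272), so that call depended on which libraries were kept.

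Ptgs2 (chr1:150100031-150108227, plus strand) was the most variable gene. It had 6 to 76 counts per library in BALB/c sham, with a lowest, median and highest of 0.171, 1.34 and 2.26 CPM. After SNI the BALB/c libraries were at 0.519, 0.595, 0.777 and 1.14 CPM. In B10.D2 the sham libraries were at 0.643, 0.694, 0.917, 0.951 and 1.65 CPM and the injured ones at 0.800, 1.03, 1.20, 1.35 and 1.88 CPM. Within BALB/c sham alone the values spanned more than those of any other group. The difference after SNI was -0.69 on the log2 scale (SE 0.445, interval -1.61 to 0.24, edgeR adjusted p 0.386) in BALB/c and 0.35 (SE 0.417, interval -0.52 to 1.22, adjusted p 0.752) in B10.D2. The interaction was 1.03 (SE 0.609, interval -0.24 to 2.30, unadjusted p 0.105, adjusted p 1.0). The intervals include a 2-fold fall in BALB/c and a 2-fold rise in B10.D2.

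Among the prostaglandin E2 receptors, Ptger1, whose product couples to calcium signalling, gave the injury difference with the lowest adjusted p. In B10.D2 it was at 16.8, 17.2, 17.9, 18.2 and 22.5 CPM in sham and at 12.7, 12.9, 13.0, 14.6 and 15.5 CPM after SNI. Every injured library was below every sham library, and the groups of 5.18% of all features did not overlap there. The log2 fold change was -0.41 (SE 0.0849, 95% interval -0.59 to -0.24, edgeR adjusted p 0.00562), a change of -24.9%, and all 26 alternative fits called it. In BALB/c, sham had a lowest, median and highest of 20.4, 22.9 and 26.9 CPM. The injured BALB/c libraries were at 19.4, 19.8, 21.8 and 23.3 CPM and overlapped with sham (log2 fold change -0.14, SE 0.0847, interval -0.32 to 0.032, adjusted p 0.327). The difference between the strains' changes was -0.27 (SE 0.120, unadjusted p 0.0358, adjusted p 1.0) and was not called.
Ptger1 lies at chr8:83666678-83672753 in mm10, plus strand. The strand setting of the counting is not given in the sources used here, so reads from opposite strands cannot be told apart with certainty, and the count and level per kilobase of Ptger1 are uncertain.

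Ptger3, whose product inhibits cAMP formation, fell in BALB/c. The sham libraries had a lowest, median and highest of 48.3, 51.8 and 58.7 CPM and the injured ones were at 44.4, 45.4, 47.3 and 47.8 CPM. All 4 injured libraries were below all 6 sham libraries; Ptger3 and Ptger4 were the 2 of 10 genes whose groups did not overlap there, against 8.61% of all features. The log2 fold change was -0.20 (SE 0.0572, 95% interval -0.32 to -0.080, edgeR adjusted p 0.0305), a change of -12.9%. It was no longer called without BALB/c sham library 57 or 71 or SNI library 49, 65 or 70 (edgeR adjusted p 0.0530 to 0.0867), or with BALB/c fitted alone (adjusted p 0.0823).
In B10.D2 Ptger3 was at 60.7, 63.44, 63.44, 65.2 and 68.1 CPM in sham and at 53.4, 55.5, 56.5, 59.1 and 62.4 CPM after SNI. Only the highest injured library reached the sham range. The log2 fold change of -0.17 (SE 0.0559, interval -0.29 to -0.054) was not called (edgeR adjusted p 0.0927), and the interaction was 0.028 (SE 0.0798, interval -0.14 to 0.19), so a difference between the strains in this change was not detected. In rat Ptger3 was at 12.6, 13.0, 14.6 and 15.4 CPM in sham and at 12.3, 13.3, 13.9 and 15.4 CPM after SNT. These groups overlapped over most of their range (log2 fold change -0.018, SE 0.129, interval -0.31 to 0.27).

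Ptger4 and Ptger2 encode receptors that raise cAMP. Ptger4, the 1 gene of 7 called in rat, was at 4.56, 4.73, 5.08 and 6.95 CPM in sham and at 6.06, 8.77, 9.57 and 10.4 CPM after SNT. The lowest SNT library, 3, was below the highest sham library, 2, and for 0 of the 7 genes were the rat groups apart, against 26.5% of features. The difference was 0.70 on the log2 scale (SE 0.214, 95% interval 0.22 to 1.18, edgeR adjusted p 0.0368), a change of 62.7%. The call was lost without SNT library 1, 2 or 4 or sham library 1 or 3, where the log2 fold change was 0.61 to 0.71 and the adjusted p 0.0591 to 0.104, and without both intermediate libraries (0.58, adjusted p 0.0802).
Markers of other cells moved with the rat injury. Of the 8 macrophage markers 4 were tested and 1 rose, Cx3cr1, and their sum was 88.4 to 326 CPM in sham and 288 to 417 CPM after SNT; Aif1, Cd68, Csf1r and Mrc1 were listed at 0. Of the 4 T cell markers 2 rose, Cd3e and Cd4, and their sum was 33.6 to 86.3 CPM in sham and 100 to 153 CPM after SNT. Of the 5 neuronal markers tested, Mrgprd, Scn10a and Scn9a fell, and the sum was 5936 to 8250 CPM in sham and 3873 to 7222 CPM after SNT. Their part in the Ptger4 change was not tested.
In mouse Ptger4 (chr15:5206661-5244187, minus strand) did not pass the test. BALB/c sham had a lowest, median and highest of 11.07, 11.3 and 12.1 CPM, above the injured libraries at 9.96, 10.2, 10.6 and 10.9 CPM. These groups did not overlap, with a log2 fold change of -0.14 (SE 0.0736, interval -0.29 to 0.014, edgeR adjusted p 0.267). In B10.D2 sham was at 10.4, 11.6, 12.2, 13.8 and 14.3 CPM and the injured libraries were within 11.6 to 12.1 CPM (log2 fold change -0.056, interval -0.21 to 0.095, adjusted p 0.773). Its exons share 82 bases with Ttc33 and 1015 with the pseudogene Gm15937, both on the other strand and neither called after SNI. Ptger2 (chr14:44988195-45003820, plus strand) ranged from 1.58 to 3.08 CPM over all 20 mouse libraries, and the groups overlapped in both strains. Its log2 fold changes were 0.073 in BALB/c (interval -0.23 to 0.38) and 0.049 in B10.D2 (interval -0.25 to 0.34).

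**Figure D3:**
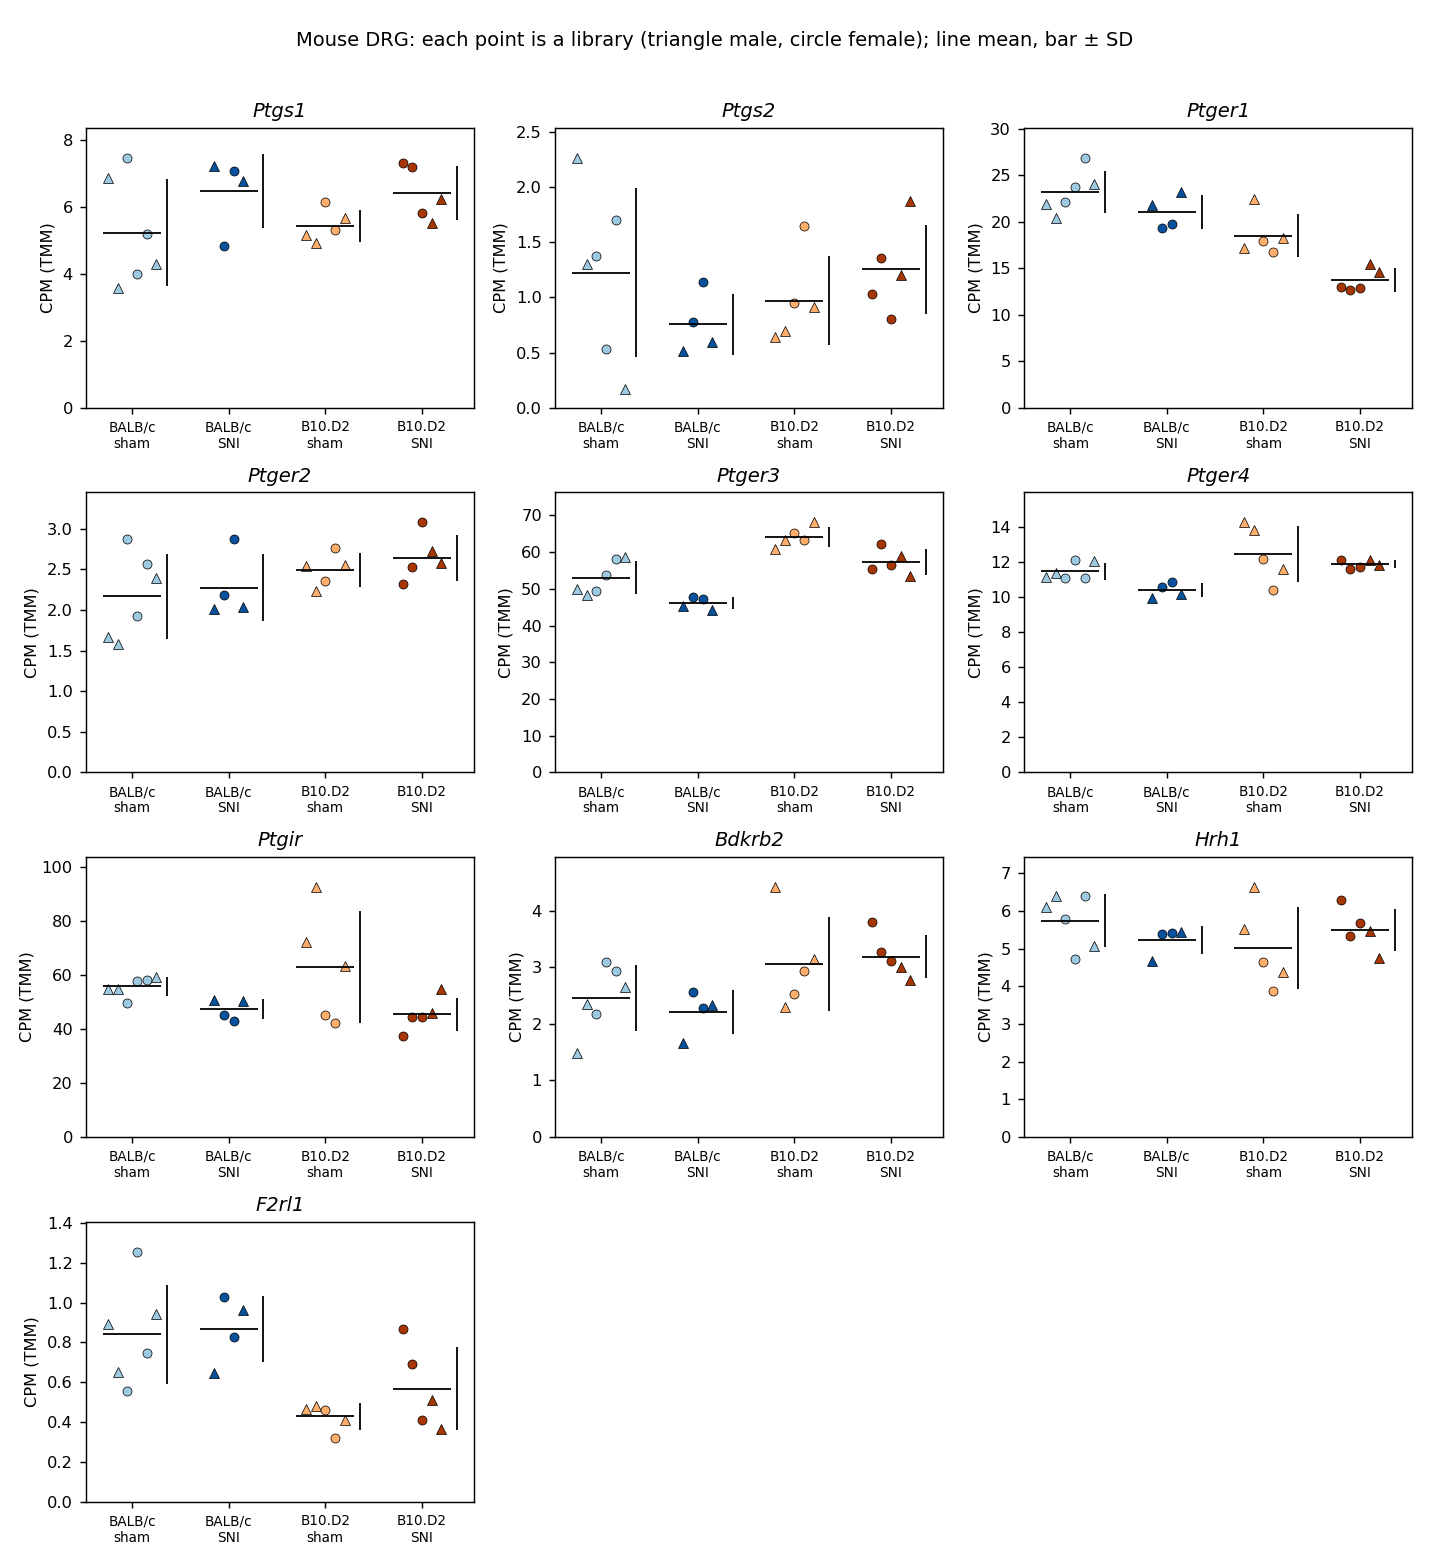
CPM of each of the 10 genes in every mouse library, by strain and surgery, with triangles for males, circles for females, lines at group means and bars of 1 SD on axes that start at 0. Ptger1 is lowest in B10.D2 SNI, F2rl1 is low in B10.D2 sham, and the Ptgir males of B10.D2 sham stand above the females.

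Ptgir (chr7:16906490-16910905, plus strand), whose product raises cAMP in response to prostacyclin, was lower on average after SNI in both strains, but neither difference passed the test. In BALB/c, sham had a lowest, median and highest of 49.4, 56.3 and 59.1 CPM and the injured libraries were at 43.0, 45.2, 50.4 and 50.6 CPM (log2 fold change -0.24, SE 0.123, 95% interval -0.50 to 0.016, edgeR adjusted p 0.248). It was called with BALB/c fitted alone (-0.24, adjusted p 0.0305). In B10.D2 the log2 fold change was -0.39 (SE 0.123, interval -0.64 to -0.13, adjusted p 0.0804). This was called by DESeq2 (adjusted p 0.0290), without a filter on low counts (0.0179) and without sham library 67 (0.0486) or 77 (0.0245).
The sexes stood apart for this gene in B10.D2 sham. The 3 sham males were at 63.1, 72.1 and 92.4 CPM and the 2 females at 42.04 and 45.2 CPM. After SNI the 2 males were at 45.7 and 54.8 CPM and the 3 females at 37.5, 44.3 and 44.5 CPM. Every injured male was thus below every sham male, and the females overlapped. In BALB/c sham the males were at 54.8, 54.9 and 59.1 CPM and the females at 49.4, 57.7 and 58.2 CPM. After SNI the BALB/c males were at 50.4 and 50.6 CPM and the females at 43.0 and 45.2 CPM. Whether the injury change differed between the sexes was not tested. Over all groups males were higher by 0.30 on the log2 scale (SE 0.0869, interval 0.12 to 0.48, unadjusted p 0.00227, edgeR adjusted p 0.157), which DESeq2 called (0.0475). Of the 10 genes edgeR called 0 between the sexes, against 0.243% of features, with 1 at an unadjusted p under 0.05.
In rat Ptgir was at 70.9, 89.2, 90.5 and 118 CPM in sham and at 57.9, 72.2, 91.3 and 103 CPM after SNT. The groups overlapped over most of their range (log2 fold change -0.18, SE 0.199, interval -0.63 to 0.26, edgeR adjusted p 0.506).

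The receptors for bradykinin, histamine and proteases did not pass the test after injury in any of the 3 comparisons. Bdkrb2 (chr12:105563226-105595237, plus strand) encodes the constitutive receptor for bradykinin, a peptide released in injured tissue. In rat it was at 16.4, 26.9, 34.9 and 35.1 CPM in sham and at 31.4, 36.8, 51.4 and 55.9 CPM after SNT. Only the lowest SNT library was within the sham range, and the log2 fold change was 0.63 (SE 0.256, 95% interval 0.056 to 1.20, edgeR adjusted p 0.0914). In mouse it was at 1.49 to 4.41 CPM over all libraries, and its groups overlapped, with log2 fold changes of -0.15 in BALB/c (interval -0.54 to 0.25) and 0.021 in B10.D2 (interval -0.36 to 0.40).
Hrh1 (chr6:114397936-114483296, plus strand), the receptor for histamine from mast cells, was at 5.61, 5.63, 7.04 and 8.37 CPM in rat sham and at 7.71, 8.72, 9.06 and 10.2 CPM after SNT. Only the lowest SNT library was within the sham range (log2 fold change 0.43, SE 0.177, interval 0.032 to 0.82, edgeR adjusted p 0.0958). Without both intermediate libraries neither Bdkrb2 (0.66, adjusted p 0.0834) nor Hrh1 (0.53, adjusted p 0.0598) was called. In mouse Hrh1 was within 3.88 to 6.63 CPM in every library, with log2 fold changes of -0.13 in BALB/c (interval -0.40 to 0.13) and 0.15 in B10.D2 (interval -0.12 to 0.42).
F2rl1 (chr13:95511732-95525227, minus strand), whose product is activated by trypsin-like proteases, had only 12 to 45 counts per mouse library, and its sham and injured groups overlapped in both strains. Its log2 fold changes after SNI were 0.055 in BALB/c (SE 0.238, interval -0.44 to 0.55) and 0.37 in B10.D2 (SE 0.267, interval -0.19 to 0.92). In rat it was at 1.496, 1.82, 2.07 and 2.08 CPM in sham and at 1.74, 1.84, 2.34 and 2.95 CPM after SNT (log2 fold change 0.24, SE 0.235, edgeR adjusted p 0.460).

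**Figure D4:**
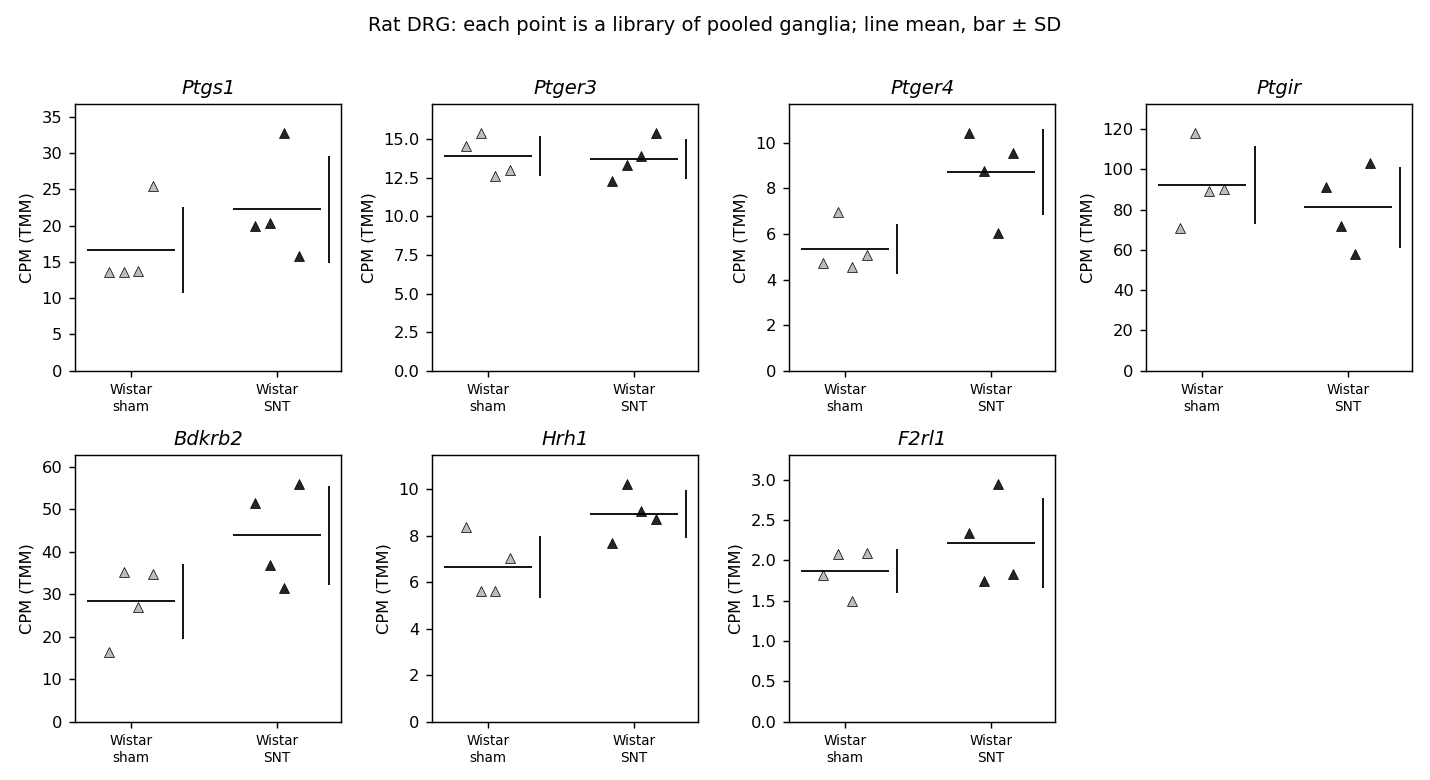
CPM of the 7 genes with counts in rat, in each library of pooled ganglia, with lines at group means and bars of 1 SD on axes that start at 0. Ptger4 is higher after SNT with 1 SNT library within the sham range, and 1 sham library of Ptgs1 stands among the SNT values.

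Between B10.D2 and BALB/c sham libraries 3 of the 10 genes were called, against 21.6% of all features, and the groups of 2 did not overlap, against 13.3% of features. F2rl1 had a lowest, median and highest of 0.555, 0.820 and 1.26 CPM in BALB/c sham and was at 0.319, 0.410, 0.462, 0.467 and 0.482 CPM in B10.D2 sham, all below the BALB/c range. The log2 difference was -0.95 (SE 0.245, 95% interval -1.46 to -0.44, edgeR adjusted p 0.00695), a change of -48.2%, from few counts. Ptger1 was lower in B10.D2, with a change of -20.8% (log2 difference -0.34, SE 0.0801, adjusted p 0.00364), with groups that overlapped. Ptger3 was 21.4% higher in B10.D2 (log2 difference 0.28, SE 0.0531, adjusted p 0.000445), with all 5 B10.D2 sham libraries above all 6 of BALB/c. All 26 alternative fits called each of these differences. Of the other genes, Bdkrb2 had the largest estimate (0.35, SE 0.174, adjusted p 0.181), and it was called when the strain difference was averaged over sham and SNI (0.43, adjusted p 0.0137), as was Ptger4 (0.15, adjusted p 0.0248). The strain comparison shares its sham libraries with those of injury.
Cell markers differed between the strains in the same sham libraries. All 4 T cell markers were higher in B10.D2, with sums of 0.652 to 1.40 CPM in BALB/c and 1.61 to 2.99 CPM in B10.D2, and 3 of 8 macrophage markers were higher, with sums of 69.7 to 177 and 136 to 164 CPM. Of the markers of vessels and blood cells, 3 of 4 mural markers (sums of 277 to 402 CPM in BALB/c and 266 to 320 CPM in B10.D2), 3 of 6 endothelial markers (115 to 145 and 102 to 124 CPM) and 2 of 4 neutrophil markers (24.0 to 179.99 and 13.2 to 48.9 CPM) were lower. Of the 8 neuronal markers Uchl1 was higher and Mrgprd, a receptor gene of nonpeptidergic nociceptors, was lower (log2 difference -0.69, edgeR adjusted p 3.23e-08), with sums of 8053 to 9147 CPM in BALB/c and 8383 to 9375 CPM in B10.D2. Of 5 fibroblast markers 2 were higher and 1 lower, and of 4 satellite glia markers 1 was lower. The part of these markers in the strain differences of Ptger1, Ptger3 and F2rl1 was not tested.

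Related genes were followed in lists of prostanoid synthesis, other prostanoid receptors, the kinin and histamine systems, protease-activated receptors, leukotrienes, and signalling below the receptors. Of the 60 list genes tested in mouse, 11 were called after SNI in BALB/c (4 higher, 7 lower), which was 18.3% against 9.69% of all features. In B10.D2 5 were called (2 higher, 3 lower), 8.33% against 4.58%. The strain by SNI interaction was called for 0 of the 60, against 0.0243% of features. A call in 1 strain alone is therefore not a detected difference between the strains. In rat 11 of 35 were called (4 higher, 7 lower), 31.4% against 27.4%. These shares were not tested against each other. In prostanoid synthesis 2 of 14 were called in BALB/c, 0 of 14 in B10.D2 (3 at an unadjusted p under 0.05) and 0 of 9 in rat (2 unadjusted). Hpgds, the prostaglandin D synthase of blood-derived cells, rose (log2 fold change 0.48, edgeR adjusted p 0.04997), and Fam213b, a prostamide/prostaglandin F synthase, fell (-0.20, adjusted p 0.0232). Of the other prostanoid receptors 0 of 3 were called in either mouse strain (1 in each unadjusted) and 2 of 2 fell in rat: the prostaglandin F receptor gene Ptgfr, from 45.2 ± 8.16 to 15.9 ± 6.29 CPM (SD, n = 4 each, log2 fold change -1.51, adjusted p 0.0106), and the thromboxane receptor gene Tbxa2r (-0.76, adjusted p 0.0381).
In the kinin list 0 of 6 were called in mouse (1 in BALB/c and 2 in B10.D2 unadjusted) and 1 of 2 in rat, Cpm, a carboxypeptidase that trims kinins, which fell (-1.11, edgeR adjusted p 0.0132). In the histamine list Hnmt, which inactivates histamine, fell in BALB/c (-0.24, adjusted p 0.0372) and in rat (-1.37, adjusted p 0.0165). In B10.D2 the log2 fold change of Hnmt was also -0.24 but was not called (edgeR adjusted p 0.0536). The H2 receptor gene Hrh2 rose in B10.D2 (0.41, adjusted p 0.0430) and the H3 receptor gene Hrh3 fell in rat (-1.69, adjusted p 0.0134). The histamine calls were thus 1 of 4 in each mouse strain and 2 of 4 in rat.
Among 8 genes of protease-activated receptors and proteases, 2 were called in BALB/c and 1 in B10.D2. Ctss, a protease of macrophages and microglia, rose in both (0.99, edgeR adjusted p 0.00326, and 0.86, adjusted p 0.0155), and the thrombin receptor gene F2r fell in BALB/c (-0.30, adjusted p 0.0299). In rat 1 of 2 fell, F2rl2 (-2.03, adjusted p 0.0150). In the leukotriene list 0 of 9 were called in either mouse strain (2 in BALB/c and 1 in B10.D2 unadjusted) and 2 of 3 rose in rat, Alox5, the enzyme that begins leukotriene synthesis (0.84, adjusted p 0.0188), and the receptor gene Cysltr1 (1.36, adjusted p 0.0270).
Of 16 signalling genes, 4 were lower and 2 higher in BALB/c, and 3 were lower in B10.D2. The inhibitory G protein gene Gnai1 fell in both strains (-0.28, edgeR adjusted p 0.00157, and -0.32, adjusted p 0.00061), as did the phospholipase gene Plcb1 (-0.23, adjusted p 0.00164, and -0.17, adjusted p 0.0259). Prkaca, a catalytic subunit of protein kinase A, fell in BALB/c (-0.20, adjusted p 0.0201). Rapgef4, a cAMP sensor, fell in B10.D2 (-0.21, adjusted p 0.00851) and in rat (-1.78, adjusted p 0.0179). In rat 3 of 13 were called, 1 lower and 2 higher, and Gna11 (0.49, adjusted p 0.0188) and Gnai3 (0.33, adjusted p 0.0398) rose.
Cell markers moved beside these genes in mouse too. In BALB/c 3 of 8 macrophage markers rose after SNI, with sums of 69.7 to 177 CPM in sham and 129 to 205 CPM after injury, and in B10.D2 edgeR called 0 of 8 (6 at an unadjusted p under 0.05), with sums of 136 to 164 and 149 to 240 CPM. Snap25 was the 1 of 8 neuronal markers that fell in each strain. Of 6 mast cell markers 0 were called in either strain (0 unadjusted), with sums of 14.3 to 32.2 CPM in sham and 18.2 to 32.5 CPM after SNI in BALB/c and of 16.6 to 26.1 and 15.1 to 27.5 CPM in B10.D2. Of the other lists, edgeR called 1 of 5 fibroblast markers in both strains and 1 of 3 in rat (Lum, higher), 1 of 4 satellite glia markers in both strains (Cdh19, higher), and 1 of 6 endothelial markers in BALB/c (Cldn5, higher) and 1 of 2 in rat (Tek, higher). For T cells, neutrophils and mural cells 0 of 4 each were called in either strain, with 2 and 1 of the T cell and neutrophil markers unadjusted in BALB/c. The part of these cells in the changes of the receptors and enzymes was not tested.

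Assembled long noncoding RNAs (LncRNAs) lay within 50000 bases of 2 of the 10 genes. LncRNA1608 (chr8:83654417-83656012, plus strand) lay 10666 bases from Ptger1 on its strand and was at 2.24 CPM on average. After SNI its log2 fold changes were 0.18 and 0.098 (edgeR adjusted p 0.352 in BALB/c, 0.750 in B10.D2). Between strains it was lower in B10.D2 sham (log2 difference -0.47, SE 0.110, adjusted p 0.00317), the direction of Ptger1. LncRNA2479 (chr12:105630632-105633916, minus strand) lay 35395 bases from Bdkrb2 on the other strand, at 3.89 CPM, and was called in none of the mouse comparisons (adjusted p 0.300 to 0.992). The deposited splice junctions covered 9 of the 10 annotated introns of Ptgs2, 10 of 11 of Ptgs1 and all 4 of Ptger3. The single introns of Ptger2 and F2rl1 and all 2 each of Ptgir and Bdkrb2 were covered too. Coverage was lower for Ptger1 (2 of 3), Ptger4 (3 of 5) and Hrh1 (4 of 7). Hrh1 had 5 junctions that matched no annotated intron, the most of the 10 genes.

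The genes most like each receptor or enzyme over the 20 mouse libraries were found by Spearman correlation of log2(CPM + 1) among annotated genes, as a description over libraries that share strain and surgery. Ptger1 was closest to Dmtn (0.97, and 0.81 after subtracting group means) and Akr7a5 (0.93 and 0.44). Ptger3 was closest to Hsbp1l1 (0.95 and 0.58) and Nap1l3 (0.94 and 0.59). Ptgir was closest to Mapk11 (0.91 and 0.85) and Gdpgp1 (0.90 and 0.87), and Ptger4 to Snapc2 (0.86 and 0.82) and Mitd1 (0.82 and 0.57). Ptgs1 was closest to Cnr2 (0.85 and 0.76) and Ndc80 (0.84 and 0.75), and Bdkrb2 to 2210406O10Rik (0.83 and 0.71) and Ahrr (0.81 and 0.63). For Ptgs2, Ptger2 and Hrh1 the highest values were 0.74 (A830092H15Rik), 0.76 (Gm14406) and 0.75 (Gm25635), in each case with a gene under 1 CPM. Among the 10 genes themselves the highest values were those of Ptger3 and Ptger4 (0.60, and 0.0090 after subtracting group means) and of Ptger1 and Ptgir (0.57 and 0.61).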

How the data were processed

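Per the labels and methods, RNA was ribodepleted (mouse) or poly(A)-selected (rat) and made into stranded libraries. The authors aligned read pairs by STAR to mm10 or rn6, and HTSeq assigned them to Ensembl genes and assembled LncRNAs (strand setting not given in the sources used here). The deposited count tables, whole-number counts per feature, gave every expression value here, and deposited annotation files gave the LncRNA positions and splice junctions. From the authors' result tables only the symbol column was used. Their mean normalized signal per gene, counts that the authors divided by DESeq2 size factors and averaged, was not used, nor were their fold changes and p-values. B10.D2 sham 59 and BALB/c SNI 66 were not analysed here.

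The 10 genes, the related lists and the rule for naming genes (all members; from each list at most 3 genes called in an injury comparison, those with the largest change; the 2 genes most like each member with a mean of at least 1 CPM; LncRNAs within 50000 bases) were chosen with earlier results of these data known. Counts were filtered by filterByExpr, scaled by TMM and fitted by edgeR 4.0.16 in R 4.3.3, in mouse as sex plus strain by condition over 20 libraries and in rat by condition, with Benjamini-Hochberg adjustment over 24685 and 13690 features and a threshold of 0.05. DESeq2 1.42.0 was an alternative, with other normalization, filters, models and libraries left out. Scripts were tested on simulated counts. Positions are those of mm10. No rat annotation was used, and no protein sequences. Some related genes are not reported here.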

Additional observations from a re-analysis of the deposited data

Results flagged for a closer look

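In 3 of 54 groups of 4 to 6 libraries, 1 library stood apart from the rest by Dixon's test at its 95% critical value, and chance marks about 1 in 20 groups. Rat sham library 4 was at 25.5 CPM for Ptgs1, with the other 3 sham libraries at 13.6 to 13.7 CPM. B10.D2 sham library 60 was at 22.5 CPM for Ptger1, with the others at 16.8 to 18.2 CPM; the fall of Ptger1 after SNI was called without it too. BALB/c SNI library 49 was at 4.67 CPM for Hrh1, with the others at 5.39 to 5.44 CPM.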

How the results depend on the processing

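Over 57 results, 1363 values under other settings gave 1305 with the direction and call kept, 34 with the direction reversed, 11 newly called and 13 no longer called. The 6 called results gave 144 such values, 131 still called and 0 reversed. Ptger1 in B10.D2 and the strain differences of Ptger1, Ptger3 and F2rl1 were called under every setting tried.
Of the 10 genes, DESeq2 and no filter on low counts each called 2 after SNI in B10.D2 (Ptgir added) and 1 between the sexes (Ptgir). Averaging over sham and SNI called 5 between strains. Leaving out 1 library at a time called 0 to 1 in BALB/c, 1 to 2 in B10.D2 and 0 to 2 in rat (2 without sham library 4). In rat, deviations from group means correlated at r -0.29 to 0.050 over the 4 sham and SNT pairs that shared a title number. Over the 12 pairs with different numbers r was -0.56 to 0.49. With so few pairs this cannot exclude that the numbers pair the samples. The main fit did not use them, and the replicate block on them called 0 (Ptger4 edgeR adjusted p 0.0567). Mouse numbers name single animals, and no paired analysis was possible because the mouse groups share no numbers.
These reversed log2 values were small and not called, and the cause was not tested. Ptger2's interaction was 0.013 without the sex term. Ptger3 in rat was 0.013 without a filter and 0.0058 without both intermediate libraries. Ptgs2 between strains was 0.20 when averaged. With 1 library left out, values ran from -0.087 to 0.20 for Bdkrb2 in B10.D2, -0.064 to 0.20 for F2rl1 in BALB/c, and -0.0070 to 0.082 for Hrh1 between sexes. Ptger2 ran from -0.011 to 0.11 in B10.D2, -0.041 to 0.16 in BALB/c, and -0.099 to 0.092 in the interaction. Ptger3 ran from -0.062 to 0.055 in rat and -0.015 to 0.054 in the interaction. Between strains Ptgir ran from -0.025 to 0.22, Ptgs1 from -0.026 to 0.19 and Ptgs2 from -0.59 to 0.0020. The Ptgs1 interaction ran from -0.24 to 0.010. Counts of 12 to 45 (F2rl1) and 6 to 76 (Ptgs2) limit those genes most.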
